A study of Mus musculus with 9 samples.

Results

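Myeloid and leukocyte genes are a set of 34 genes that macrophages, monocytes, granulocytes and, for some of them, other white blood cells use as surface proteins, receptors and effectors. They were described here in left ventricle RNA of mice with and without delta-sarcoglycan. Members were found by matching the gene symbol in the deposited per-gene values to the list of names, which gave 34 of 20634 genes, and every member passed the filter on low counts that left 15549 genes for testing. Fgr passed that filter only through its KO libraries. All 34 members had a higher mean level in knockout (KO) than in wild-type (WT) ventricles. Over both treatments 25 rose past the test, against 2.06% of all genes tested. The members were chosen with earlier results of these data known. Under ifetroban, against vehicle, no member passed the test in either genotype, nor did any of the 15549 genes.

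RNA-seq was carried out on the left ventricle of 6-month-old mice on a C57BL/6 background. Delta-sarcoglycan (dSG), encoded by Sgcd, is part of the dystrophin-associated complex of muscle membranes, and mice that lack it develop muscular dystrophy with cardiomyopathy. Ifetroban blocks the thromboxane-prostanoid receptor, and the series set genotype against treatment to follow the heart's response to that blockade. The groups were 3 libraries of dSG knockout mice given ifetroban, 2 of dSG knockout mice given vehicle, 2 of wild-type mice given ifetroban and 2 of wild-type mice given vehicle. Ifetroban was supplied in the drinking water at 25 mg/kg/day from weaning, and vehicle was plain drinking water. All mice had running wheels at intervals, which were used to bring on the cardiomyopathy, and all hearts were perfused with phosphate-buffered saline before RNA isolation. The labels do not say which exons the knockout allele lacks or whether each replicate was a separate animal, so p-values measure only the spread between these samples.

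Macrophages are the most common white blood cells of a healthy heart, where they take up debris and dying cells, and further monocytes and granulocytes enter injured heart muscle from the blood. Their development depends on the transcription factor PU.1 and, for macrophages, on signals through the CSF1 receptor. They recognise antibody-coated and complement-coated targets through Fc receptors and beta2 integrins, engulf them by remodelling actin, and attack them with lysozyme, pore-forming proteins and the oxidants made by the phagocyte NADPH oxidase. The 34 members are ordered below by these roles. They lie on 16 chromosomes, and levels are given in CPM, a gene's share of a library's counts after scaling between libraries.

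Each library held 21510263 to 30182955 counts, and single members had between 2 and 7644 counts, with 7 of 306 values under 10. Libraries also differed in how gene levels went with transcript length, in a way that partly followed the groups. Relative to the 9-library mean, longer transcripts were lower in KO ifetroban replicate 1, both KO vehicle libraries and WT vehicle replicate 1 (Spearman correlation -0.52 to -0.40 across 13051 protein-coding genes). They were higher in the other 5 libraries (0.38 to 0.43). Genes are not independent replicates, so these values carry no test. KO vehicle was wholly on the negative and WT ifetroban wholly on the positive side, while KO ifetroban and WT vehicle were mixed. The length split thus cannot be fully told apart from genotype and treatment. Sgcd stood at 7.30 to 13.3 CPM in KO libraries, against 8.36 CPM in the library labelled WT vehicle replicate 1 and 20.9 to 23.7 CPM in the other WT libraries. For KO ifetroban replicate 1 the title names ifetroban while the treatment field names vehicle. It was analysed as ifetroban, and some results that rest on it are also given without it. Differences of single members include it unless stated. With this library and WT vehicle replicate 1 both left out, an alternative chosen after seeing the data, 29 members and 535 of all genes passed for KO against WT over both treatments, against 25 members and 363 genes with all libraries. Without KO ifetroban replicate 1 alone these counts were 26 members and 366 genes.

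PU.1, the product of Spi1, binds DNA around the letters GAGGAA, and promoters of myeloid genes are known for such sites. Promoter windows were found in RefSeq (build GRCm38.p6) for 25 of the 34 members. The others were Adgre1, Itgb2, Spi1, Rac2, Cd52, Ncf4, Csf1r, Cd14 and Msr1. The letters GAGGAA, or TTCCTC for the other strand, occurred in the 250 bases before the start of 10 of these 25 members (40.0%): Ptprc, Cd53, Cd68, Laptm5, Fcgr1, Fcgr3, Clec7a, Itgam, Slc11a1 and Aif1. They occurred in the same window of 6986 of 27025 genes (25.9%). The longer run GAGGAAGT or ACTTCCTC was found in 0 of the 25 members and in 2.79% of all genes. A match describes letters and not a bound site. The windows below belong to the 4 members with the smallest adjusted p among those that rose, held the letters and had no annotated exon in the window. They are printed 5′ to 3′ on the gene's own strand, with the matched letters in capitals.
Fcgr1, chr3:96293970-96294219, minus strand: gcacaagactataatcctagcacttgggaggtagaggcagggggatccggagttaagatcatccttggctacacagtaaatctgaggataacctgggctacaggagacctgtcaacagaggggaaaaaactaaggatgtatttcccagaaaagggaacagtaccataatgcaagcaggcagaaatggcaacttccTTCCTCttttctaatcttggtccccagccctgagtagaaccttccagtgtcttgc
Cd68, chr11:69666171-69666420, minus strand: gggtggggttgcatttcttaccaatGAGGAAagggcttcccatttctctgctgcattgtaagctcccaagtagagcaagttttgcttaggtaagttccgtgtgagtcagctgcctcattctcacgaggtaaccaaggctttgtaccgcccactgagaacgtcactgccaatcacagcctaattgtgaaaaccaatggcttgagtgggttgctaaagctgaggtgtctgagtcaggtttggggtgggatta
Itgam, chr7:128062390-128062639, plus strand: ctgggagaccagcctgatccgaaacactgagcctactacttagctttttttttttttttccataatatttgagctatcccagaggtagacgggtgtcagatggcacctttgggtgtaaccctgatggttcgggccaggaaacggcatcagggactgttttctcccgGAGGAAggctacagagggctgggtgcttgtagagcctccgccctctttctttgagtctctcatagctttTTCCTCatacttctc
Cd53, chr3:106790150-106790399, minus strand: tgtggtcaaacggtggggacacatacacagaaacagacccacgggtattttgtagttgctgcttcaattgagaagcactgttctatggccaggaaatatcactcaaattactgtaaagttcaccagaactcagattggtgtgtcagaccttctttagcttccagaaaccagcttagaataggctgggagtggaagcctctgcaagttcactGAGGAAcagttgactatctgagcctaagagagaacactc
The matched letters begin 55 bases before the start of Fcgr1, 225 before that of Cd68, 84 and 15 before that of Itgam and 39 before that of Cd53.

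The question whether the hearts without delta-sarcoglycan carried more of this RNA was addressed by setting the 5 KO libraries against the 4 WT libraries in a model with genotype and treatment as terms. Over both treatments 25 of the 34 members rose (edgeR quasi-likelihood test, Benjamini-Hochberg adjusted p under 0.05 over 15549 genes), and 0 fell. Of all genes tested, 2.06% rose and 0.270% fell. Because the members were chosen with earlier results of these data known, these shares describe the set and are no independent test of it. The members' log2 fold changes ran from 0.54 to 2.89 with a median of 1.10, against a median of -0.02 over all genes tested. At an unadjusted p under 0.05, 34 of 34 members were higher and 0 lower, against 9.31% and 6.74% of all genes. Every KO library lay above every WT library for 29 of the 34 members and below for 0, against 4.62% and 2.38% of all genes. The 5 members whose groups overlapped were Itgax, Cyba, Ncf1, Ncf4 and Aif1. The summed level of the members was 610.0 to 848.1 CPM in KO and 293.5 to 393.7 CPM in WT libraries. In tissue RNA, more cells of a type and more RNA per cell cannot be told apart.

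The number of genes past the test depended on single libraries, for the members and for all genes alike, of which 363 passed with all libraries. Without WT ifetroban replicate 2, 6 members and 51 of all genes passed. The counts were 8 members and 58 genes without KO vehicle replicate 1, 15 and 149 without WT ifetroban replicate 1, and 16 and 175 without WT vehicle replicate 2. Leaving out any other library gave 17 to 27 members. The fold changes moved less, with a member median of 0.96 to 1.18 when any library was left out. Ptprc, Laptm5, Fcgr2b, C3ar1, Lyz2 and Lcp1 passed in all 15 alternatives, in which every member kept a positive fold change. Exons of Csf1r, Cd52, Fcgr2b, Itgam, Fermt3, Ncf1, Lcp1 and Coro1a overlap those of another annotated gene, so their values may hold reads of those neighbours. The neighbours lie on the opposite strand, and no source used here says whether counting used strand. The exception is Gm49368, which lies on the same strand as Itgam, so that strand would not part their reads.

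**Figure D1:**
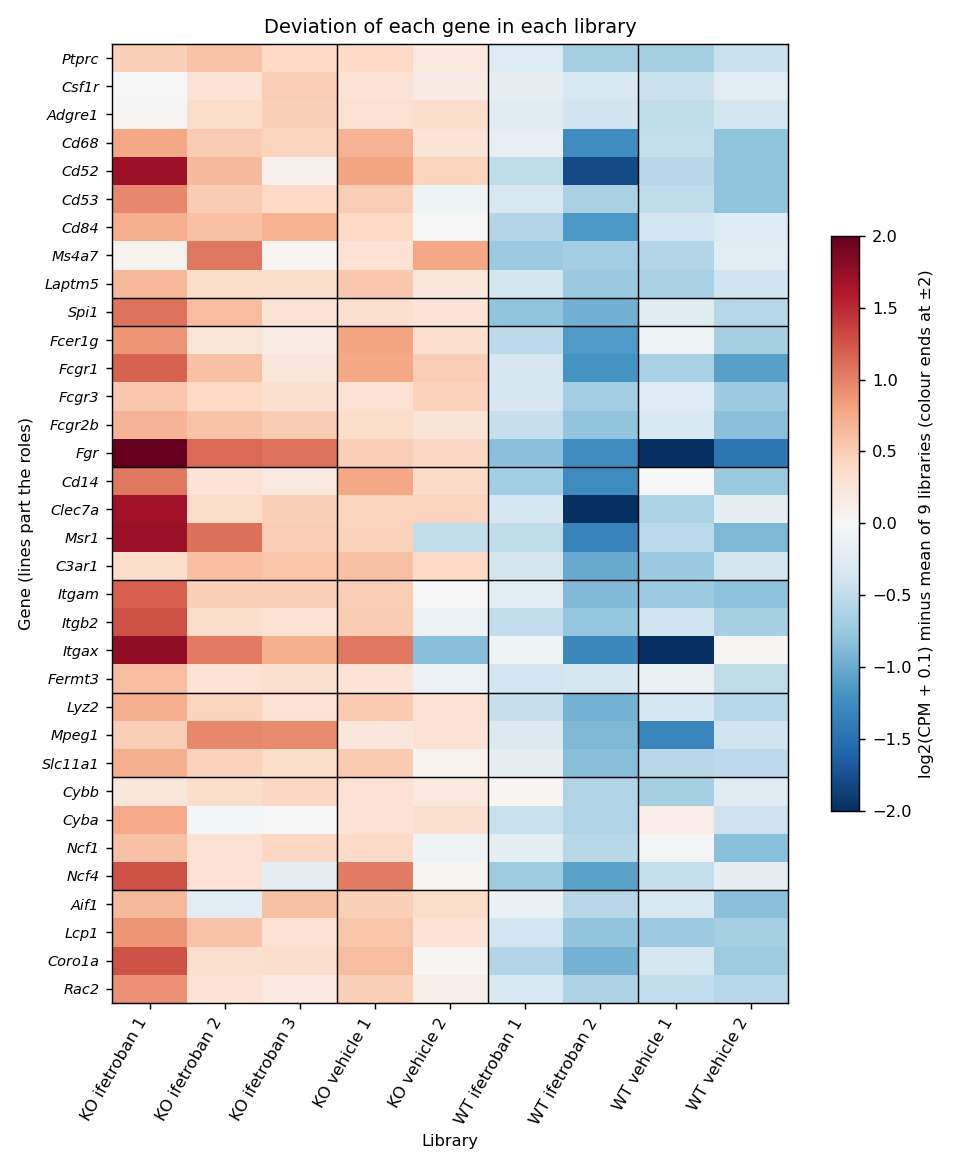
Deviation of each of the 34 members (rows, grouped by role) from its mean over the 9 libraries, in log2 CPM with a pseudocount of 0.1, with KO ifetroban, KO vehicle, WT ifetroban and WT vehicle libraries from left to right; red is above and blue below the mean. The mean deviation over members was 0.39 to 0.89 in KO ifetroban, 0.18 and 0.51 in KO vehicle, -0.92 and -0.40 in WT ifetroban and -0.58 and -0.56 in WT vehicle libraries.

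Among the surface identity genes, 8 of 9 rose, with a median log2 fold change of 1.03 and a range of 0.54 to 1.73. Ptprc (mm10 chromosome 1, 138062861 to 138175708, minus strand) encodes CD45, the tyrosine phosphatase carried by all nucleated blood cells. Its level was 12.4, 13.3 and 11.7 CPM in KO ifetroban, 11.7 and 10.2 CPM in KO vehicle, 7.35 and 5.54 CPM in WT ifetroban and 5.59 and 6.52 CPM in WT vehicle libraries. The KO and WT libraries did not overlap, and the highest was a KO ifetroban library. The difference was 0.90 ± 0.12 on the log2 scale (SE, 5 KO and 4 WT libraries, edgeR adjusted p = 0.00689).

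Laptm5 (chromosome 4, 130913125 to 130936141, plus strand) encodes a lysosomal membrane protein of blood cells that limits antigen-receptor signalling. It stood at 44.6, 36.2 and 35.7 CPM in KO ifetroban, 40.9 and 32.6 CPM in KO vehicle, 21.8 and 16.8 CPM in WT ifetroban and 17.9 and 21.3 CPM in WT vehicle libraries. The lowest KO library exceeded the highest WT library, and the difference was 0.96 ± 0.12 (SE, edgeR adjusted p = 0.00689).

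The smallest difference among the 34 members was that of Csf1r, the receptor for CSF1 and interleukin-34 on which macrophage survival depends. Its level was 45.4, 54.5 and 63.4 CPM in KO ifetroban, 54.7 and 50.6 CPM in KO vehicle, 39.8 and 36.1 CPM in WT ifetroban and 33.2 and 38.5 CPM in WT vehicle libraries. The groups did not overlap, although KO ifetroban replicate 1 lay closest to WT, and the difference was 0.54 ± 0.11 (SE, edgeR adjusted p = 0.0319). Adgre1, which encodes the macrophage surface protein F4/80, had 16.9 ± 1.91 CPM in KO and 10.5 ± 0.772 CPM in WT libraries (SD, n = 5 and 4) and a log2 fold change of 0.68 ± 0.11 (SE, edgeR adjusted p = 0.0170). Cd68, a glycoprotein of late endosomes and lysosomes whose promoter is printed above, averaged 14.4 ± 2.05 CPM in KO and 6.32 ± 1.97 CPM in WT libraries (SD), a log2 fold change of 1.18 ± 0.20 (SE, edgeR adjusted p = 0.0191).

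Cd52 encodes a small lipid-anchored glycoprotein of lymphocytes and monocytes and had the widest difference of this group, 1.73 ± 0.38 on the log2 scale (SE, edgeR adjusted p = 0.0457). Its level was 9.03 CPM in KO ifetroban replicate 1, 2.87 to 4.71 CPM in the other 4 KO libraries and 0.71 to 1.86 CPM in WT libraries. The tetraspanin gene Cd53 averaged 8.62 ± 2.23 CPM in KO and 4.09 ± 0.602 CPM in WT libraries (SD), and Cd84, a SLAM-family receptor of leukocytes, averaged 5.21 ± 0.997 CPM in KO and 2.43 ± 0.621 CPM in WT libraries (SD), and both rose (edgeR adjusted p = 0.0195 and 0.0337). Ms4a7, an MS4A-family membrane protein gene, averaged 4.47 ± 1.49 CPM in KO and 2.12 ± 0.375 CPM in WT libraries (SD) and missed the threshold (log2 fold change 1.10 ± 0.25, SE, edgeR adjusted p = 0.0501), although its groups did not overlap.

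Spi1 (chromosome 2, 91082390 to 91115756, plus strand), the gene of PU.1, rose. Its level was 13.6, 9.88 and 7.75 CPM in KO ifetroban, 8.01 and 7.75 CPM in KO vehicle, 3.59 and 3.25 CPM in WT ifetroban and 5.39 and 4.25 CPM in WT vehicle libraries. All KO libraries lay above all WT libraries, WT ifetroban being the lowest group, and the difference was 1.19 ± 0.22 (SE, edgeR adjusted p = 0.0231).

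All 5 Fc receptor and signalling genes rose, with log2 fold changes of 0.91 to 2.89. Fcgr2b (chromosome 1, 170958617 to 170976547, minus strand) encodes the inhibitory low-affinity receptor for IgG, and Fcgr3 (chromosome 1, 171051174 to 171064935, minus strand) an activating low-affinity receptor. Fcgr2b stood at 18.3, 16.9 and 16.2 CPM in KO ifetroban, 14.7 and 13.7 CPM in KO vehicle, 8.28 and 6.58 CPM in WT ifetroban and 9.23 and 6.36 CPM in WT vehicle libraries. Fcgr3 stood at 19.2, 17.3 and 16.5 CPM in KO ifetroban, 16.2 and 18.2 CPM in KO vehicle, 10.4 and 8.08 CPM in WT ifetroban and 10.9 and 7.86 CPM in WT vehicle libraries. Neither gene's groups overlapped, and the difference was 1.05 ± 0.14 for Fcgr2b (SE, edgeR adjusted p = 0.00689) and 0.91 ± 0.13 for Fcgr3 (SE, edgeR adjusted p = 0.00830). The deposited counts of the pair were each not whole in 8 libraries while their sum was whole, within 0.02, in all 8. Reads shared by these related genes may have been split between them, so each value is uncertain.

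Fcgr1 (chromosome 3, 96282909 to 96293969, minus strand) encodes the high-affinity IgG receptor. It averaged 5.22 ± 1.38 CPM in KO and 1.82 ± 0.538 CPM in WT libraries (SD, n = 5 and 4), a difference of 1.504 ± 0.25 (SE, edgeR adjusted p = 0.0177). Fcer1g, the gamma chain through which the activating Fc receptors signal, averaged 9.67 ± 2.29 CPM in KO and 4.56 ± 1.38 CPM in WT libraries (SD), and it rose by 1.12 ± 0.22 (SE, edgeR adjusted p = 0.0274).

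The largest difference of the 34 was that of Fgr (chromosome 4, 132974095 to 133001910, plus strand), a Src-family kinase of myeloid cells. Its level was 4.21, 1.72 and 1.65 CPM in KO ifetroban, 1.06 and 1.00 CPM in KO vehicle, 0.36 and 0.25 CPM in WT ifetroban and 0.10 and 0.20 CPM in WT vehicle libraries. These levels rested on 90, 54 and 41 counts in KO ifetroban, 28 and 25 in KO vehicle, 9 and 6 in WT ifetroban and 2 and 5 in WT vehicle libraries. All WT counts of Fgr were under the low-count filter's minimum of 10, so Fgr entered the test only through its KO libraries. The groups did not overlap, the highest library was KO ifetroban replicate 1, and the difference was 2.89 ± 0.41 (SE, edgeR adjusted p = 0.00901). Without KO ifetroban replicate 1 the difference was 2.54 (edgeR adjusted p = 0.00449). Without WT ifetroban replicate 2, Fcgr3 and Fgr no longer passed, with log2 fold changes of 0.83 for Fcgr3 and 2.72 for Fgr.

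**Figure D2:**
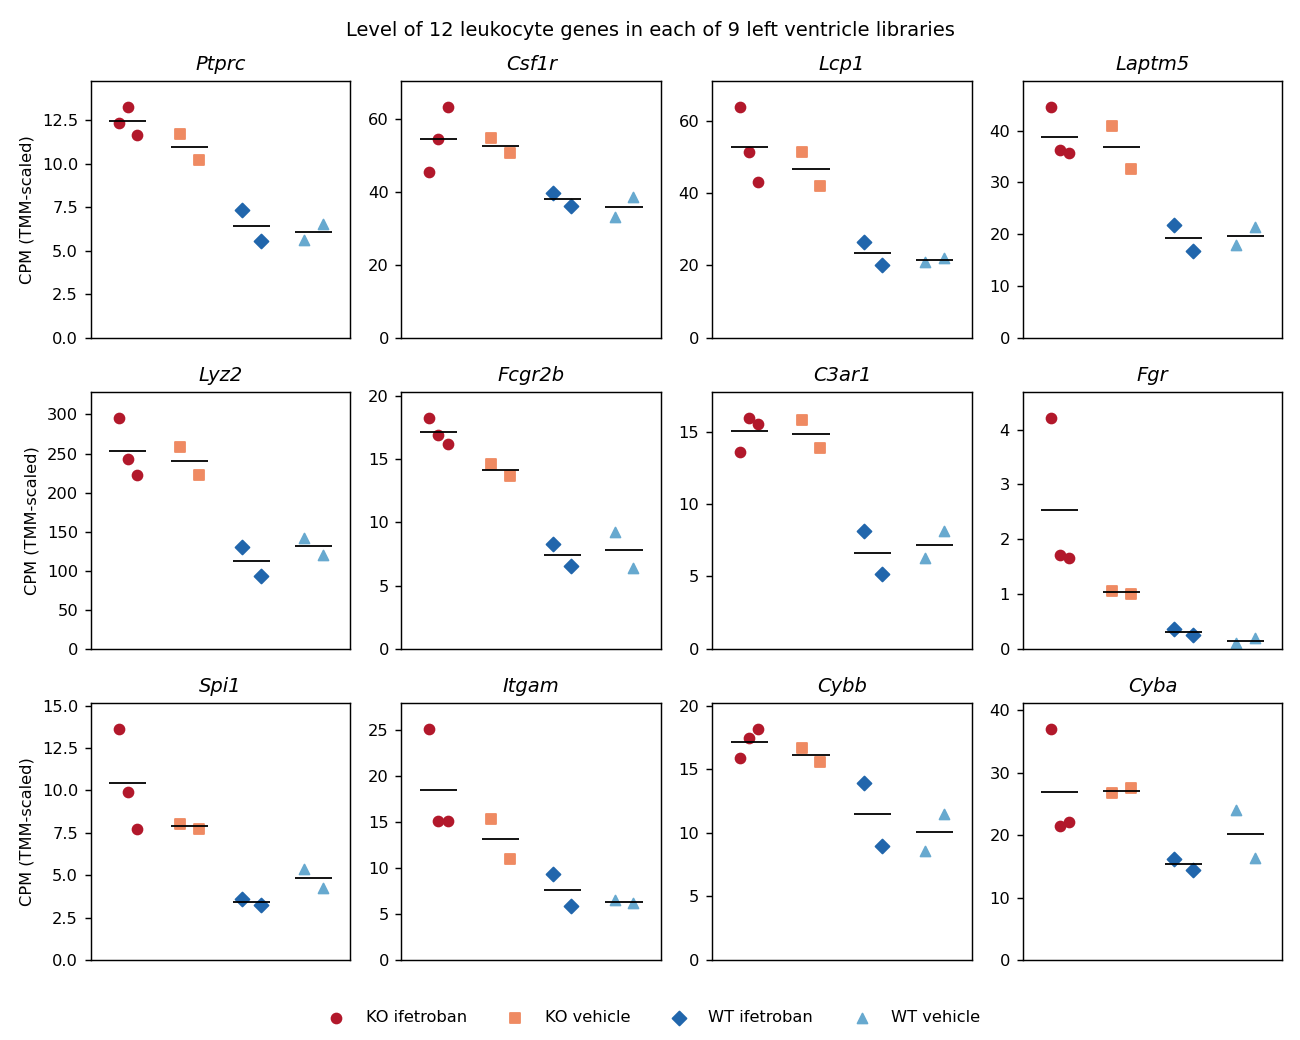
Levels in CPM of selected members in each library, as points by group, with KO ifetroban, KO vehicle, WT ifetroban and WT vehicle from left to right; the horizontal bars mark group means. For Ptprc the 5 KO libraries lay between 10.2 and 13.3 CPM and the 4 WT libraries between 5.54 and 7.35 CPM.

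Of the 4 pattern-recognition, scavenger and anaphylatoxin receptors, 2 rose. C3ar1 (chromosome 6, 122847138 to 122856161, minus strand) encodes the receptor for the complement fragment C3a. It stood at 13.6, 16.0 and 15.5 CPM in KO ifetroban, 15.8 and 13.9 CPM in KO vehicle, 8.12 and 5.16 CPM in WT ifetroban and 6.26 and 8.14 CPM in WT vehicle libraries. The lowest KO library lay above the highest WT library, and the difference was 1.11 ± 0.15 (SE, edgeR adjusted p = 0.00689).

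Cd14, the co-receptor for bacterial lipopolysaccharide, averaged 10.4 ± 2.77 CPM in KO and 4.56 ± 1.74 CPM in WT libraries (SD), and it rose by 1.24 ± 0.25 (SE, edgeR adjusted p = 0.0327). Msr1, a scavenger receptor for modified lipoproteins, stood at 15.8, 10.1 and 6.66 CPM in KO ifetroban, 6.45 and 3.29 CPM in KO vehicle, 3.27 and 1.79 CPM in WT ifetroban and 3.18 and 2.47 CPM in WT vehicle libraries. Its groups did not overlap, but the lowest KO library exceeded the highest WT library by little. The difference of 1.51 ± 0.37 did not pass (SE, edgeR adjusted p = 0.0654). Clec7a, which encodes the beta-glucan receptor dectin-1 and which the deposited annotation lists as a polymorphic pseudogene, averaged 3.43 ± 1.70 CPM in KO and 1.20 ± 0.610 CPM in WT libraries (SD) and did not pass (1.48 ± 0.45, SE, edgeR adjusted p = 0.129).

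Of the 4 beta2 integrin and adhesion genes, Itgam and Itgb2, the alpha and beta chains of complement receptor CR3 (CD11b and CD18), rose. Itgam (chromosome 7, 128062640 to 128128160, plus strand) stood at 25.1, 15.2 and 15.1 CPM in KO ifetroban, 15.3 and 11.0 CPM in KO vehicle, 9.37 and 5.87 CPM in WT ifetroban and 6.57 and 6.16 CPM in WT vehicle libraries. KO ifetroban replicate 1 stood apart at the top, and no KO library overlapped WT. The difference was 1.17 ± 0.20 for Itgam (SE, edgeR adjusted p = 0.0194) and 1.09 ± 0.24 for Itgb2 (SE, edgeR adjusted p = 0.0475).

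Itgax, the CD11c chain of dendritic cells and some macrophages, did not pass (1.62 ± 0.58, SE, edgeR adjusted p = 0.197). Its level was 3.51, 2.07 and 1.61 CPM in KO ifetroban, 2.09 and 0.48 CPM in KO vehicle, 0.89 and 0.33 CPM in WT ifetroban and 0.10 and 0.97 CPM in WT vehicle libraries, so that KO vehicle replicate 2 lay among WT. Fermt3, the integrin activator kindlin-3, averaged 6.61 ± 1.20 CPM in KO and 4.23 ± 0.466 CPM in WT libraries (SD) and did not pass (0.62 ± 0.16, SE, edgeR adjusted p = 0.0698).

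The 3 antimicrobial effectors rose. Lyz2 (chromosome 10, 117277334 to 117282274, minus strand), the lysozyme of macrophages and granulocytes, had the highest level of all members, 296, 243 and 222 CPM in KO ifetroban, 258 and 222 CPM in KO vehicle, 130 and 93.4 CPM in WT ifetroban and 142 and 121 CPM in WT vehicle libraries. All KO libraries lay above all WT libraries, and the difference was 1.04 ± 0.14 (SE, edgeR adjusted p = 0.00689). Mpeg1, the pore-forming perforin-2, stood at 27.5, 38.2 and 37.5 CPM in KO ifetroban, 22.6 and 23.6 CPM in KO vehicle, 15.8 and 10.4 CPM in WT ifetroban and 7.80 and 14.7 CPM in WT vehicle libraries. KO and WT libraries did not overlap, and Mpeg1 rose by 1.23 ± 0.20 (SE, edgeR adjusted p = 0.0170). Slc11a1, the phagosomal metal transporter NRAMP1, averaged 6.997 ± 1.16 CPM in KO and 3.55 ± 0.680 CPM in WT libraries (SD) and rose by 0.96 ± 0.17 (SE, edgeR adjusted p = 0.0211).

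The phagocyte NADPH oxidase genes had the lowest median log2 fold change of the roles, 0.67, and 1 of 4 rose. Cybb, the catalytic gp91phox chain, averaged 16.7 ± 1.08 CPM in KO and 10.7 ± 2.49 CPM in WT libraries (SD) and rose by 0.63 ± 0.14 (SE, edgeR adjusted p = 0.0489). Its membrane partner Cyba (p22phox), which other cell types also express, stood at 36.98, 21.5 and 22.0 CPM in KO ifetroban, 26.7 and 27.5 CPM in KO vehicle, 16.2 and 14.5 CPM in WT ifetroban and 24.1 and 16.3 CPM in WT vehicle libraries. KO ifetroban replicates 2 and 3 lay below WT vehicle replicate 1, and the difference of 0.63 ± 0.19 did not pass (SE, edgeR adjusted p = 0.122). The cytosolic subunit genes Ncf1 (p47phox) and Ncf4 (p40phox) differed by 0.71 ± 0.19 and 1.30 ± 0.37 (SE) without passing (edgeR adjusted p = 0.0886 for Ncf1 and 0.112 for Ncf4).

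Of the actin and GTPase regulators, 3 of 4 rose. Lcp1 (chromosome 14, 75131101 to 75230842, plus strand), the actin-bundling protein L-plastin of blood cells, had the smallest p of all members. It stood at 63.9, 51.4 and 42.98 CPM in KO ifetroban, 51.4 and 41.9 CPM in KO vehicle, 26.6 and 20.03 CPM in WT ifetroban and 20.9 and 22.0 CPM in WT vehicle libraries. No KO library overlapped WT, and the difference was 1.15 ± 0.14 (SE, edgeR adjusted p = 0.00543). Coro1a, the leukocyte coronin, averaged 17.5 ± 6.36 CPM in KO and 7.47 ± 1.35 CPM in WT libraries (SD) and rose by 1.20 ± 0.25 (SE, edgeR adjusted p = 0.0335). Rac2, the blood cell GTPase that also activates the NADPH oxidase, averaged 5.49 ± 1.34 CPM in KO and 2.87 ± 0.286 CPM in WT libraries (SD) and rose by 0.92 ± 0.19 (SE, edgeR adjusted p = 0.0320). Aif1, the macrophage marker IBA1, averaged 2.44 ± 0.533 CPM in KO and 1.32 ± 0.294 CPM in WT libraries (SD) and did not pass (0.88 ± 0.24, SE, edgeR adjusted p = 0.101).

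**Figure D3:**
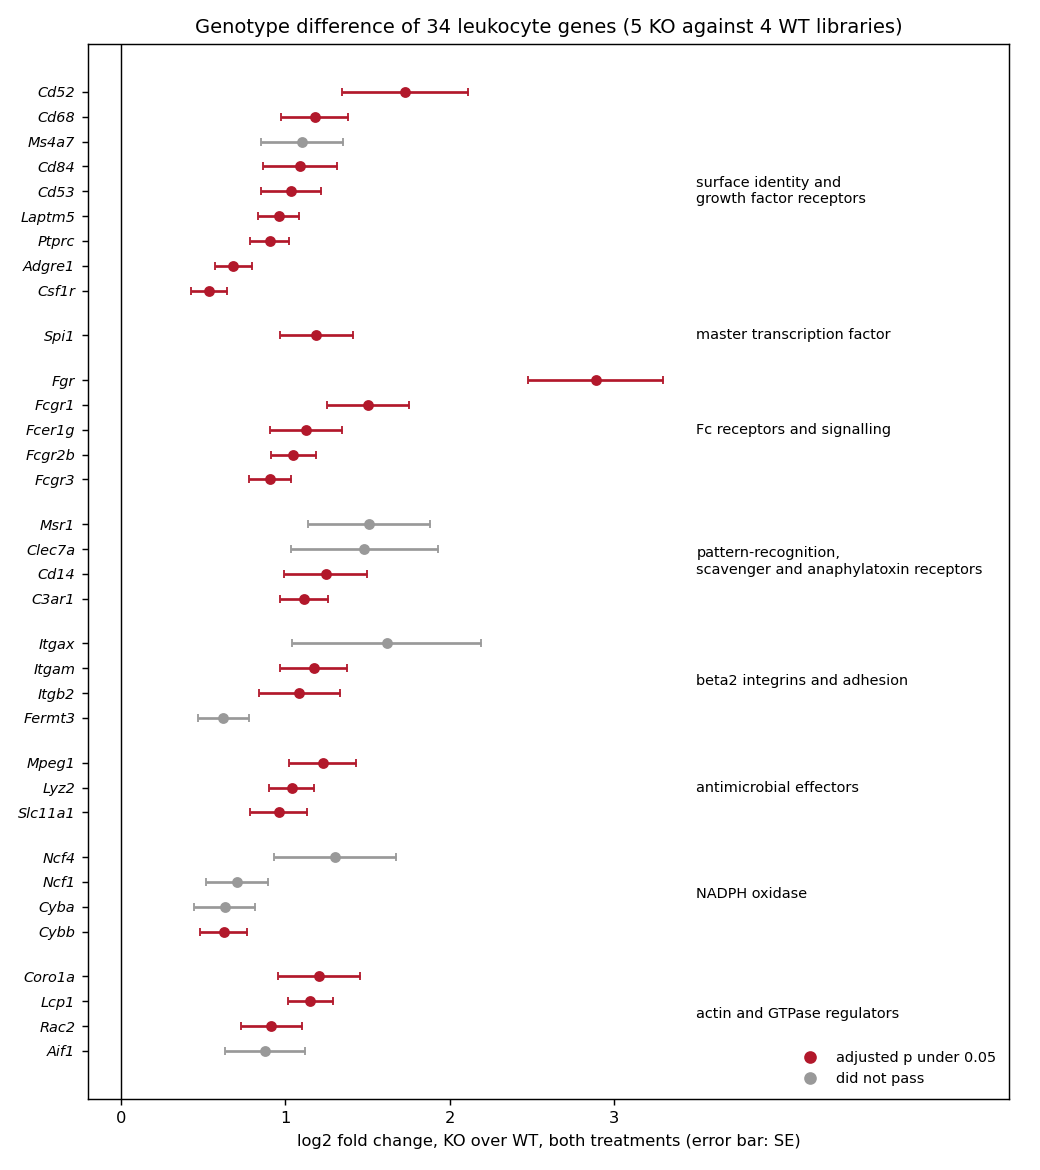
Log2 fold change of KO over WT across both treatments for each of the 34 members, grouped by role, with SE as horizontal bars; red points mark members with an edgeR adjusted p under 0.05 and grey points those that did not pass. All 34 values lie to the right of 0, from 0.54 for Csf1r to 2.89 for Fgr, and 25 passed.

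Levels of different members were compared per kilobase of the longest annotated transcript. On this scale Lyz2 stood far above the others, at 189 ± 23.2 CPM per kb in KO and 92.5 ± 15.8 CPM per kb in WT libraries (SD, n = 5 and 4). Cyba came next, with 36.2 ± 8.37 CPM per kb in KO and 23.9 ± 5.76 CPM per kb in WT libraries. Laptm5 and Fcer1g followed in KO at 14.6 ± 1.83 and 14.2 ± 3.35 CPM per kb, which did not differ beyond their spread. Csf1r had 11.4 ± 1.40 CPM per kb in KO and 7.85 ± 0.617 CPM per kb in WT libraries. It did not differ beyond the spread from Cd68, Fcgr3 and Lcp1 in KO, nor from Laptm5 and Fcgr3 in WT. Itgax and Fgr were lowest, at 0.483 ± 0.269 and 0.574 ± 0.392 CPM per kb in KO, against 0.142 ± 0.105 and 0.0683 ± 0.0322 CPM per kb in WT libraries.

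Within each treatment the same contrast had fewer libraries, and the 2 contrasts share no library. For KO against WT under vehicle, 0 of 34 members passed the test, against 0.0386% of all genes called higher and 0.0129% called lower (edgeR). At an unadjusted p under 0.05, 26 members were higher and 0 lower, against 5.21% and 2.69% of all genes, and the DESeq2 Wald test called 9, among 144 of all genes. The median log2 fold change was 0.88, with a range of 0.41 to 2.68, against -0.02 over all genes. Both KO vehicle libraries exceeded both WT vehicle libraries for 32 of 34 members, all but Itgax and Ncf1, against 18.3% of all genes. The smallest p-values were those of Lcp1 (1.12 ± 0.21, adjusted p = 0.154), Laptm5 (0.91 ± 0.19, adjusted p = 0.191) and C3ar1 (1.04 ± 0.23, adjusted p = 0.207; SE, edgeR). Among the libraries with a negative length slope alone, the vehicle contrast was positive for 34 of 34 members with a median of 0.83, and 9 passed, among 247 of all genes. There WT vehicle was replicate 1 only, the library with Sgcd at the KO level, and its spread was assumed to be that of the KO vehicle libraries.

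Under ifetroban, 0 of 34 members passed the test for KO against WT, against 0.0257% of all genes called higher and 0.0129% called lower (edgeR). At an unadjusted p under 0.05, 33 members were higher and 0 lower, against 6.24% and 3.12% of all genes, and the DESeq2 Wald test called 23, among 290 of all genes. The median log2 fold change was 1.20, with a range of 0.52 to 3.01, against -0.01 over all genes. All KO ifetroban libraries exceeded both WT ifetroban libraries for 33 of 34 members, all but Aif1, against 14.0% of all genes. The smallest p-values were those of Cd84 (1.56 ± 0.24), Fcgr2b (1.20 ± 0.19) and Spi1 (1.60 ± 0.25), each with an edgeR adjusted p of 0.0787 (SE). Among the libraries with a positive length slope alone, thus without KO ifetroban replicate 1, the contrast was positive for 34 of 34 members with a median of 1.06, and 6 passed, among 61 of all genes.

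**Figure D4:**
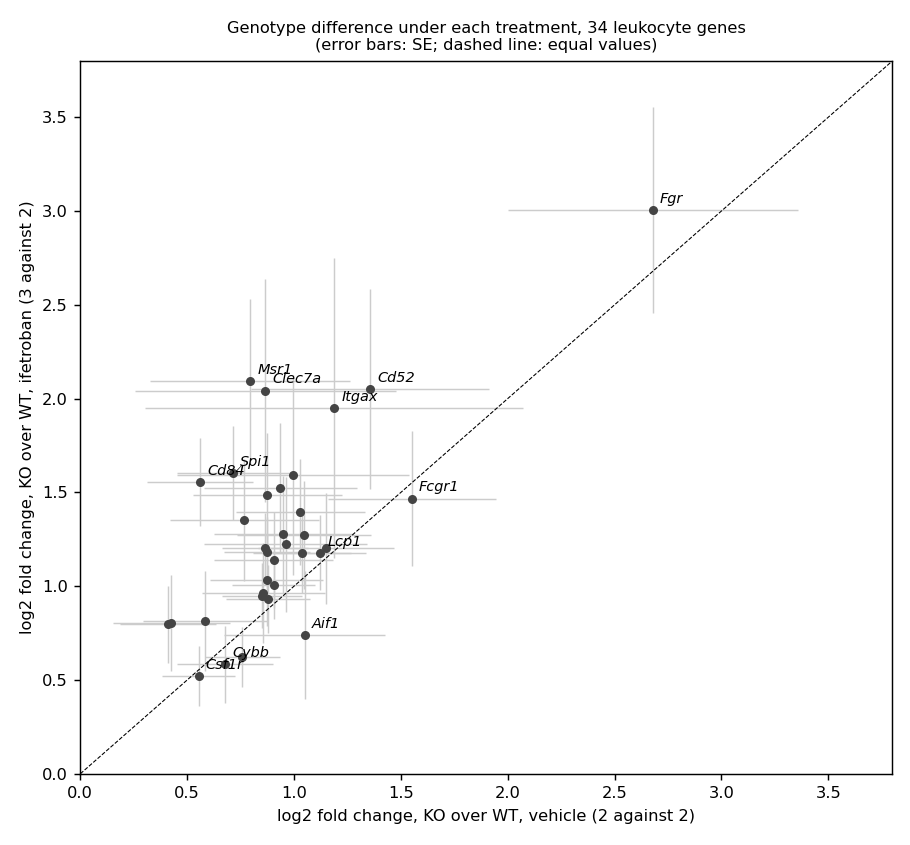
Log2 fold change of KO over WT under vehicle (x axis, 2 against 2 libraries) and under ifetroban (y axis, 3 against 2 libraries), a point with SE bars for each of the 34 members; the dashed line marks equal values. All points lie above 0 on both axes, and 29 of 34 had the larger value under ifetroban, a difference that passed the interaction test for 0 members.

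Ifetroban was then set against vehicle within each genotype. In KO ventricles 0 of 34 members passed for ifetroban against vehicle, as did 0 of all 15549 genes (0%; edgeR), and the DESeq2 Wald test called 0. At an unadjusted p under 0.05, 2 members were higher, Msr1 and Fgr, and 0 lower, against 2.26% and 1.69% of all genes. The median log2 fold change was 0.19, with 27 of 34 members positive and a range of -0.13 to 1.27. Msr1 differed by 1.15 ± 0.41 and Fgr by 1.27 ± 0.47 on this scale, followed by Mpeg1 at 0.57 ± 0.27 (SE, edgeR adjusted p = 0.862 for each). All 3 KO ifetroban libraries exceeded both KO vehicle libraries for Cd84, Fcgr2b, Fgr, Msr1, Fermt3 and Mpeg1, which is 6 of 34, against 10.4% of all genes, and they lay below both for 0 members, against 9.76% of all genes. Without KO ifetroban replicate 1 the median was 0.10 with 20 of 34 positive, Msr1 was at 0.79 and Fgr at 0.70. Leaving out KO vehicle replicate 1 gave a median of 0.36 with Msr1 at 1.72, and leaving out KO vehicle replicate 2 gave 0.07 with Msr1 at 0.75. It was 0.29 without KO ifetroban replicate 3. With KO ifetroban replicate 1 counted as vehicle, as its treatment field has it, the median was -0.13, Msr1 was at -0.0034 and Fgr at -0.29. Of the 6 genes without overlap, Mpeg1 alone then still lay above every KO vehicle library.

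In WT ventricles 0 of 34 members passed, as did 0 of all genes (0%; edgeR), the DESeq2 Wald test called 0, and 0 members had an unadjusted p under 0.05, against 1.03% of all genes higher and 1.22% lower. The median log2 fold change was -0.02, with a range of -0.65 to 0.94, and 16 of 34 members were positive. The smallest p-values were those of Cd84 (-0.54 ± 0.26), Spi1 (-0.49 ± 0.27) and Cd14 (-0.63 ± 0.38), each with an edgeR adjusted p of 0.881 (SE). Both WT ifetroban libraries lay below both WT vehicle libraries for Cd84, Ms4a7, Spi1, Cyba and Ncf4, which is 5 of 34, against 13.8% of all genes, and above both for Fgr, which is 1 of 34, against 17.6% of all genes. WT ifetroban replicate 2 had the lowest level of all 9 libraries for 21 members, and the median was -0.28 without WT ifetroban replicate 1, 0.18 without WT ifetroban replicate 2 and -0.12 without WT vehicle replicate 2. Red cell and platelet markers had a median of -1.92 on the log2 scale in this contrast, and 0 of 5 passed. Their sum was 1011 CPM in WT vehicle replicate 1 and 346 CPM in WT vehicle replicate 2. It was 100.5 and 254 CPM in WT ifetroban libraries. A link of these markers to the members was not tested.

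The interaction asks whether ifetroban acted differently in KO than in WT. It passed for 0 of 34 members and for 0 of all genes (0%; edgeR), and the DESeq2 Wald test called 0. At an unadjusted p under 0.05, 2 members were positive and 0 negative, against 0.933% and 0.984% of all genes. These were Cd84 (1.00 ± 0.34) and Spi1 (0.89 ± 0.36), followed by Msr1 (1.30 ± 0.63), each with an edgeR adjusted p of 1.00 (SE). Cd84 stood at 6.09, 5.50 and 5.97 CPM in KO ifetroban, 4.86 and 3.65 CPM in KO vehicle, 2.38 and 1.58 CPM in WT ifetroban and 2.77 and 3.00 CPM in WT vehicle libraries. It was thus above vehicle in all KO ifetroban libraries and below vehicle in both WT ifetroban libraries. Counted as vehicle, KO ifetroban replicate 1 would be the highest of all libraries and the KO groups would overlap, and the Cd84 interaction was then 0.78, against 0.97 without this library. The member median of the interaction was 0.29, with 29 of 34 positive, and -0.0535 with KO ifetroban replicate 1 counted as vehicle. Leaving out KO ifetroban replicate 1 gave 0.09 with 23 positive. Over all libraries left out in turn the median ran from 0.08 (WT ifetroban replicate 2) to 0.52 (WT ifetroban replicate 1).

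KO ifetroban replicate 1 had the highest level of all 9 libraries for 27 of 34 members, yet the lowest of the 5 KO libraries for 3. Its difference from the mean of the other 2 KO ifetroban libraries ran from -0.49 on the log2 scale for Ms4a7, -0.46 for Mpeg1, -0.40 for Adgre1 and -0.37 for Csf1r to 1.23 for Ncf4, 1.26 for Clec7a, 1.27 for Fgr and 1.35 for Cd52. Across the 34 members this difference had a Spearman correlation of -0.45 with transcript length, and across 12468 protein-coding genes one of -0.64. These are descriptions of a single library, and the part of transcript length in its values was not tested. Itgam was 0.73 higher in it. The ratio of Itgam to Csf1r was 0.554 in KO ifetroban replicate 1, 0.278 and 0.239 in the other KO ifetroban libraries, 0.280 and 0.217 in KO vehicle, 0.236 and 0.163 in WT ifetroban and 0.198 and 0.160 in WT vehicle libraries. The ratio of Adgre1 to Csf1r stayed between 0.276 and 0.344 in all 9 libraries.

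Genes that work with the members were described from lists of pathway partners for KO against WT over both treatments, where 2.33% of all genes passed in either direction. No gene of these lists fell. Of 11 tested ITAM adaptor and kinase genes 3 rose, with a list median of 0.96, and the smallest p-values were those of Tyrobp, the adaptor DAP12 (1.20 ± 0.20, adjusted p = 0.0181), and of the phosphatase gene Ptpn6 (1.08 ± 0.20, adjusted p = 0.0233; SE, edgeR). Of 9 CSF1 ligand, cytokine receptor and myeloid transcription factor genes 4 rose, with a median of 0.69, led by the cytokine receptor chain Csf2rb (1.62 ± 0.25, SE, edgeR adjusted p = 0.0113) and the transcription factor Cebpa (0.69 ± 0.12, SE, edgeR adjusted p = 0.0189). The ligand genes Csf1 (0.33 ± 0.10, adjusted p = 0.145) and Il34 (0.16 ± 0.26, adjusted p = 0.812) did not pass (SE, edgeR). Of 14 Toll-like receptor genes and CD14 partners 2 rose, Ly86 (1.41 ± 0.22, SE, edgeR adjusted p = 0.0113) and Tlr2 (0.93 ± 0.17, SE, edgeR adjusted p = 0.0233), and the list median was 0.68. All 14 had a positive fold change.

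Of 6 other Fc receptor genes 1 rose, Fcrls (1.13 ± 0.12, SE, edgeR adjusted p = 0.00303), while Fcgr4, an activating IgG receptor, differed by 1.26 ± 0.56 without passing (SE, edgeR adjusted p = 0.303). Of 3 anaphylatoxin genes 1 rose, the C5a receptor C5ar1 (1.22 ± 0.19, SE, edgeR adjusted p = 0.0112), while complement C3 did not pass (0.72 ± 0.26, SE, edgeR adjusted p = 0.192). Of 11 further actin and GTPase regulators 3 rose, with a median of 0.60, led by the platelet and leukocyte protein pleckstrin (Plek, 1.23 ± 0.24, SE, edgeR adjusted p = 0.0274) and Arpc1b, a subunit of the Arp2/3 complex (0.68 ± 0.14, SE, edgeR adjusted p = 0.0335). Among 7 beta2 integrin partners, Icam1 (0.68 ± 0.10, SE, edgeR adjusted p = 0.0113) and Apbb1ip (0.89 ± 0.15, SE, edgeR adjusted p = 0.0191) rose, and the list median was 0.11. None of 6 further NADPH oxidase genes passed (edgeR), and their median was 0.39, with Noxo1 at 0.74 ± 0.35 (SE).

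Markers of the cells that could carry these transcripts were summed per library. Markers of recruited or lipid-associated macrophages summed to 28.5 to 144 CPM in KO and 8.98 to 16.7 CPM in WT libraries. Over both treatments 6 of 8 rose, against 2.06% of all genes, with a median log2 fold change of 2.03. This list, too, was chosen with earlier results of these data known. In WT libraries Plac8, which rose, stood at 0.12 to 0.36 CPM and Chil3, which did not pass, at 0.17 to 0.41 CPM. Both entered the test only through KO libraries. Markers of resident cardiac macrophages summed to 145 to 222 CPM in KO and 116 to 163 CPM in WT libraries, and 0 of 7 passed, with a median of 0.33 (edgeR). Neutrophil markers summed to 6.95 to 23.6 CPM in KO and 1.62 to 9.44 CPM in WT libraries, and 0 of 6 passed, with a median of 1.75. For KO against WT the neutrophil median was 0.61 under vehicle and 3.18 under ifetroban, with 0 genes passing in either, and for ifetroban against vehicle it was 0.63 in KO and -1.85 in WT. The neutrophil sum was 9.44 CPM in WT vehicle replicate 1 and 3.93 CPM in WT vehicle replicate 2. The highest sums of the recruited macrophage and neutrophil markers, 144 and 23.6 CPM, were both those of KO ifetroban replicate 1.

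T cell markers summed to 2.45 to 3.23 CPM in KO and 1.23 to 2.96 CPM in WT libraries, and 0 of 5 tested passed. B cell markers summed to 10.3 to 13.04 CPM in KO and 6.62 to 11.1 CPM in WT libraries, and 0 of 6 passed. Markers of natural killer cells summed to at most 1.21 CPM and none was tested, and 4 T cell genes (Cd3d, Cd5, Trbc2 and Cd8a), 4 natural killer genes (Klrb1c, Ncr1, Klrd1 and Nkg7) and the neutrophil gene Retnlg were at 0 in at least 1 library. Mast cell (0 of 5) and dendritic cell (0 of 2) markers did not pass. The list median was -0.11 for cardiomyocyte markers, whose sums reached 36890 to 42750 CPM in KO and 44040 to 47960 CPM in WT libraries, and -0.08 for endothelial markers. Neither list had a member past the test, nor had the smooth muscle or the red cell and platelet list, and of 5 fibroblast markers Col1a1 rose. Myh6, the highest cardiomyocyte marker, stood at 12230 to 14400 CPM in the libraries with a negative length slope. It stood at 18560 to 23120 CPM in those with a positive slope. Its difference of -0.46 ± 0.17 did not pass (SE, edgeR adjusted p = 0.204), and its part in the cardiomyocyte sums was not tested. The red cell and platelet sum ran from 146 to 776 CPM in KO and from 100.5 to 1011 CPM in WT libraries. The part of these cell types in the members' levels was not tested.

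**Figure D5:**
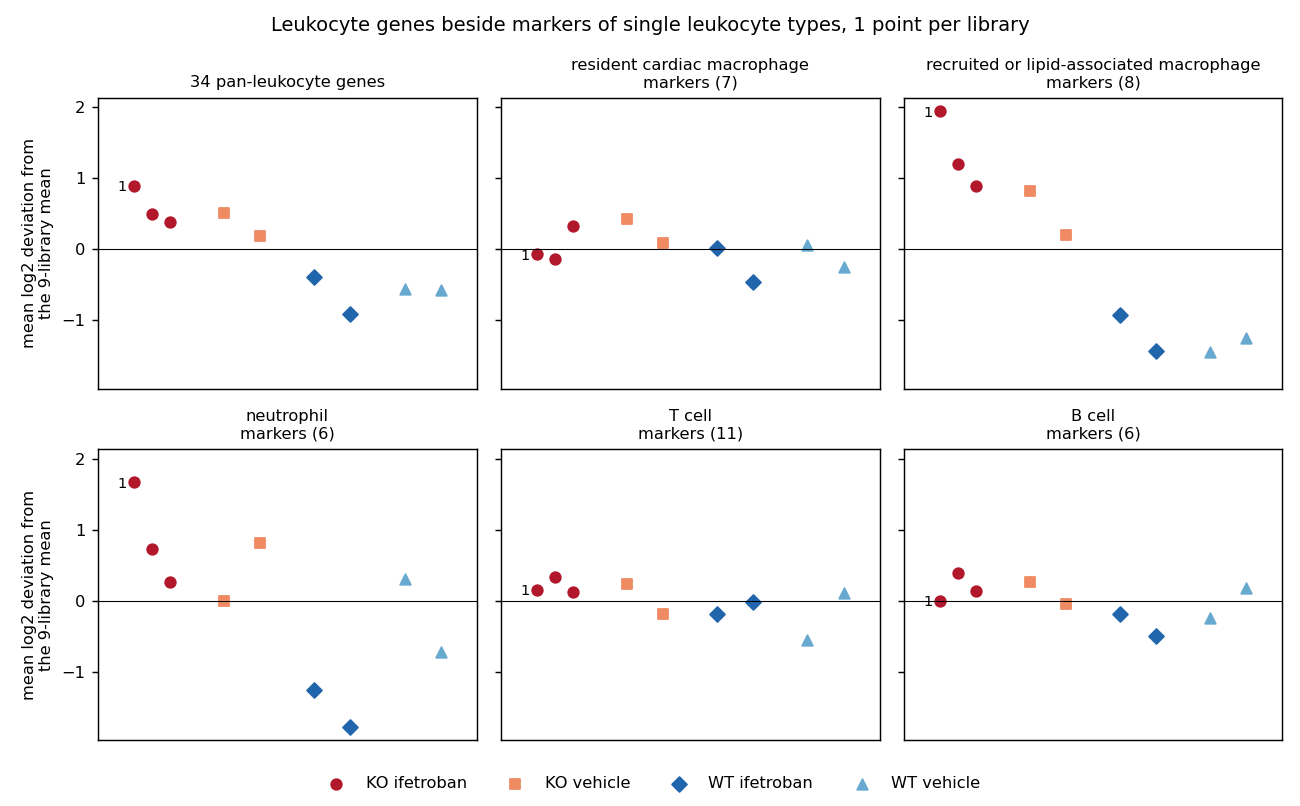
Mean log2 deviation of the 34 members and of leukocyte marker lists from their mean over the 9 libraries (y axis, log2 of CPM plus 0.1), a point for each library, with KO ifetroban, KO vehicle, WT ifetroban and WT vehicle from left to right; the label 1 marks KO ifetroban replicate 1. The members lay at 0.18 to 0.89 in KO and -0.92 to -0.40 in WT libraries, and the recruited macrophage markers were highest in KO ifetroban replicate 1, at 1.95.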

How the data were processed

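The deposited values are expected counts per gene, as the authors made them, from left ventricle RNA of 9 libraries, and 28.2% of them are not whole numbers. Per the submitters' processing notes, bcl2fastq, STAR, Partek and the build mm10 were used, without versions or roles. How reads were counted is not stated in any source at hand. The deposited end coordinates were lowered by 1, after which 15551 of 19670 symbols shared with GENCODE M21 matched in both positions (70 as deposited).

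Groups were taken from the titles. After rounding, low-count genes were removed with filterByExpr (minimum count 10), and libraries were scaled with TMM factors. The quasi-likelihood test of edgeR 4.0.16 (R 4.3.3) was fitted over 15549 genes, with 4 group means for the contrasts within a treatment or genotype and the interaction, and with additive genotype and treatment terms for KO against WT over both. Benjamini-Hochberg adjustment ran over all genes tested, and an adjusted p-value under 0.05 was called. The SE is the size of the log2 fold change over the root of its F statistic. The step was tested on simulated counts without a length-slope split, so that test does not cover the effect of such a split. The common biological coefficient of variation was 0.176, and depth was 21510263 to 30182955 counts, so members with fewer than 10 counts in a library are least precise.

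The 34 members and all lists were chosen with earlier results of these data known. All members are named. Full statistics go to up to 8 called members with the smallest p, or to the 3 smallest p where none was called, and to up to 2 genes of each partner list; other members' statistics were added so that each is accounted for. Alternatives were the DESeq2 1.42.0 Wald test and, within edgeR, size factors from DESeq2, no filter on low counts, a fit of the compared groups alone, a replicate block, KO ifetroban replicate 1 taken as vehicle, a term for the length slope, libraries of each slope alone, and each library left out in turn. Leaving out a pair of libraries with doubtful labels was added after seeing the data.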

Additional observations from a re-analysis of the deposited data

Results flagged for a closer look

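Cd84 lay on opposite sides of vehicle under ifetroban in KO and in WT, with every KO ifetroban library above both KO vehicle libraries and both WT ifetroban libraries below both WT vehicle libraries. Taken singly, the KO pattern held for 10.4% and the WT pattern for 13.8% of all genes. The share with both was not counted. Cd84 was picked from the members by this pattern, so its unadjusted p comes after that choice. The difference between these effects was 1.00 on the log2 scale. The interaction test did not pass (edgeR, unadjusted p = 0.0154, adjusted p = 1.00). KO ifetroban replicate 1, whose treatment field says vehicle, had the highest Cd84 of all libraries, 6.09 CPM, so that the KO groups would overlap with it counted as vehicle, and the difference was then 0.78. Without this library it was 0.97.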

How the results depend on the processing

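For KO against WT under vehicle, members called numbered 0 (8 of all genes), but 9 (144) with the DESeq2 Wald test, 3 (56) with the replicate block, 1 (28) with KO ifetroban replicate 1 counted as vehicle, 4 (118) with the length slope as a term and 9 (247) in the negative-slope libraries alone. Without each library in turn the count stayed at 0 and the median ran from 0.72 to 1.05. Under ifetroban 0 (6) were called, but 23 (290) with the DESeq2 Wald test, 4 (19) without a low-count filter, 17 (172) with the replicate block, 16 (143) with the length slope as a term and 6 (61) in the positive-slope libraries alone, and 0 to 1 without each library in turn, with a median of 0.98 to 1.47. Over both treatments the count of 25 (363) ran from 6 (51) to 27 (475) without each library. It was 33 (896) with the DESeq2 Wald test and 22 (472) with the length slope as a term. The length-slope term gave a member median of 0.94, against 1.10 in the main fit. Replicate numbers are shared between groups, and the deviations of same-numbered libraries correlated from -0.06 to 0.50. The correlation of WT vehicle with KO ifetroban was 0.50 for replicate 1 and 0.33 for replicate 2. Deviations mirror each other in groups of 2 libraries, so these values cannot show whether the numbers pair the samples. The replicate block gave 28 (550) over both treatments. In WT vehicle and KO ifetroban, replicate 1 had a negative length slope and the other replicates a positive one. The block thus cannot be fully told apart from the length split.

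The ifetroban median in KO (0.19) was -0.13 with KO ifetroban replicate 1 counted as vehicle, with Msr1 at -0.0034 and Fgr at -0.29. With the length slope as a term the median was 0.42, with Msr1 at 1.58 and Fgr at 1.84. With the replicate block the median was 0.30. It was 0.45 in the negative-slope libraries alone, where that library was the whole ifetroban arm, its spread taken from KO vehicle, and 0.07 to 0.36 without each library in turn. In WT the median ran from -0.28 to 0.18 without each library in turn. The interaction median (0.29) was -0.0535 with KO ifetroban replicate 1 counted as vehicle and 0.08 to 0.52 without each library in turn. The causes were not tested. Of the other values of single named members, 347 kept their side of the threshold, 26 newly passed and 2 no longer did. Low counts limit Fgr and Itgax, which had 2 counts in WT vehicle replicate 1.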
